A study of Fragaria x ananassa with 21 samples.

Results

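Strawberry receptacle on day 0 held 188 assembled transcripts (unigenes) of 109953 that were all but lacking in every later or treated receptacle library. These day 0 only unigenes were chosen by measured values. The rule asked for at least 1 RPKM (reads scaled by unigene length and library size, per kilobase and per 1e+06 reads) in the day 0 library, at most 0.1 RPKM in each of the other 6 libraries, and a day 0 level at least 20 times the highest of these. The levels that chose them are therefore a description and were not tested. They were mostly short and weakly expressed. With missing values taken as 0, 139 of the 188 had no read at all in the other 6 libraries.

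The fruits came from octaploid strawberry (Fragaria ananassa ‘Toyonoka’) grown in a greenhouse, and were 2 weeks past anthesis on day 0. Each fruit was injected with 100 μL of distilled water (CK), of abscisic acid (ABA) at 1 μM, or of nordihydroguaiaretic acid (NDGA), a blocker of ABA synthesis, at 100 μM. CK0 is the water group taken on day 0, CK5, ABA5 and NDGA5 were taken on day 5, and CK8, ABA8 and NDGA8 on day 8. Achenes were cut off all fruits and the receptacles were frozen. RNA was extracted from single fruits and 3 biological replicates were pooled, so each condition has 1 library per assay, differences between conditions have no replicate check, and less RNA per cell cannot be told apart from fewer cells of a type. The libraries held 53653395 (NDGA8) to 89152239 (ABA8) reads on unigenes, with 57773971 in CK0, and CK0 had reads on 99182 unigenes, the most of the 7.

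The fleshy part of a strawberry is the swollen tip of the flower stalk, the receptacle, which carries the true fruits, the achenes, each with a seed inside. After anthesis the receptacle first grows by cell division and expansion and later ripens, losing chlorophyll and gaining anthocyanin, and ABA promotes this ripening. A transcriptome assembled without a genome lists whatever RNA the libraries held. Genes of the young receptacle, remnants of flower or achene and RNA of organisms living on the fruit can all enter such a list, although selection on poly(A) tails, as used here, favours messenger RNA of eukaryotes. The assembler groups contigs that share sequence into components, which roughly correspond to genes or groups of close copies.

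Names or functions could be given to very few of the day 0 only unigenes. The annotation used here covered 336 unigenes of pathways for pigments and vitamins, 265 of which had at least 1 RPKM in CK0, and 0 of the 336 belonged to the set. The table of predicted small RNA targets listed 3 of the 188 (1.60%), against 3917 of all unigenes (3.56%), and gave a product or function for 2 of the 3. The small RNAs paired with these 3 unigenes are shown because the pairs are the only other readout that names a member, with bases 2 to 8, the seed, in capitals, 5′ to 3′.

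cca-miR396a-3p, paired with comp139348_c0_seq1: gTTCAAGAaagctgtgggaaa

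PC-5p-139812_12, paired with comp50369_c0_seq1: tAGAGAATatgaatctggccc

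PC-3p-156950_11, paired with comp51325_c0_seq1: aAAGAACTgactcgctaggg

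The unigene comp51325_c0_seq1 (399 nt) was annotated as translation initiation factor eIF-4A, the RNA helicase that unwinds the leader of messenger RNA and that all eukaryotic cells use. It had 2.69 RPKM (62 reads) in CK0, 0 reads in CK5, CK8, ABA5, ABA8 and NDGA5, and 2 reads (0.0934 RPKM) in NDGA8. The other unigene of the target table with the eIF-4A name, comp112259_c0_seq3, stood between 34.3 and 51.3 RPKM in all 7 libraries, with 38.8 RPKM in CK0, and was looked up after the values of the set were seen. The terms of comp112259_c0_seq3 include nucleolus and rRNA processing but not translation initiation factor activity, which comp51325_c0_seq1 carries. Whether comp112259_c0_seq3 encodes eIF-4A is therefore not settled by its annotation, and its even level is not that of a known eIF-4A copy. The predicted site of PC-3p-156950_11 lies at bases 130 to 149 of comp51325_c0_seq1. That small RNA had 2 reads in CK0, 7 and 8 in the later water libraries CK5 and CK8, 10 and 14 in ABA5 and ABA8, and 9 and 6 in NDGA5 and NDGA8. The small RNA counts given here and below are few and are not scaled to the depth of their libraries, so they show no trend between libraries.

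The unigene comp50369_c0_seq1 (734 nt) carried terms for cell wall, extracellular region, cell wall organization and sexual reproduction. It had 1.32 RPKM (56 reads) in CK0 and 0 reads in each of the other 6 libraries. The predicted site of PC-5p-139812_12 lies at bases 342 to 363 of comp50369_c0_seq1. This small RNA had 0 reads in CK0 and at most 8 reads (NDGA5) elsewhere. The remaining one, comp139348_c0_seq1 (259 nt), had no annotation, 1.00 RPKM (15 reads) in CK0 and 0 reads elsewhere. Its partner cca-miR396a-3p comes from the 3′ arm of the miR396 hairpin. The predicted site of cca-miR396a-3p lies at bases 9 to 30 of the unigene, and this small RNA had 1 to 11 reads per library, with 2 in CK0. No cleavage site was detected for any of the 3 pairs, and no degradome read lay at them in any of the 7 degradome libraries. Over all predicted pairs (5207), 859 (16.5%) had a detected site.

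The day 0 only unigenes stood low and short among the transcripts of the day 0 receptacle. Their levels in CK0 ran from 1.00 to 20.2 RPKM with a median of 1.47 RPKM, and 152 of the 188 lay under 2 RPKM. All 46909 unigenes of at least 1 RPKM in CK0 had a median of 4.36 RPKM. The length of the members had a median of 301.5 nt, with quartiles of 230 and 400.25 nt and a range of 201 to 1491 nt, while the median over the 46909 unigenes was 1143 nt. Members made up 3.47% of the unigenes under 300 nt with at least 1 RPKM in CK0, 1.15% of those of 300 to under 500 nt, 0.213% of those of 500 to under 1000 nt and 0.0189% of those of 1000 nt and over. They took 12 to 920 reads each, with a median of 25 reads. A unigene of 1 kb with 1 read in a library has 0.0112 (ABA8) to 0.0186 RPKM (NDGA8), so the cap of 0.1 RPKM admits only a few reads on unigenes of this size.

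**Figure D1:**
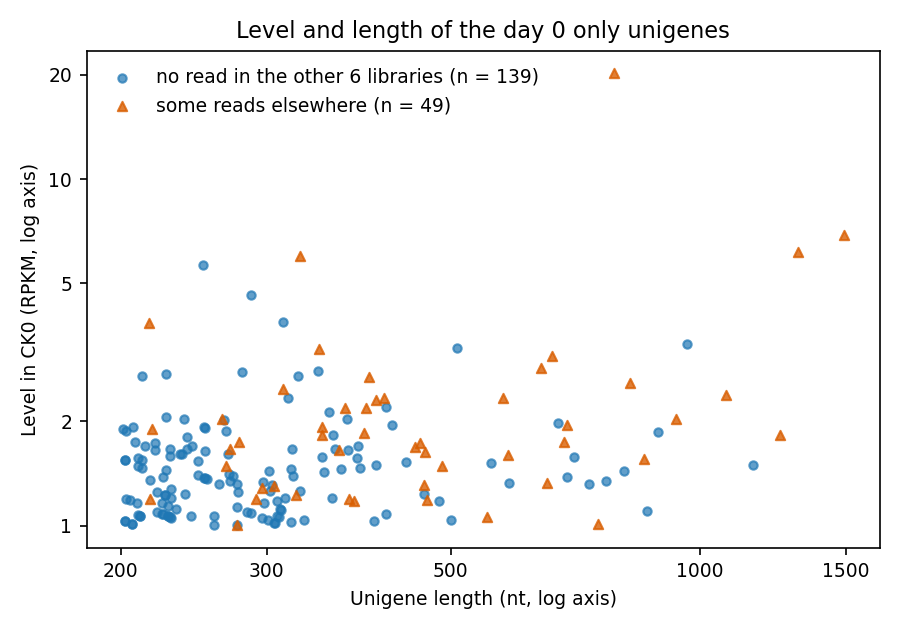
Level in CK0 (RPKM, log axis) against length (nt, log axis) of the 188 day 0 only unigenes, 1 point each, with triangles for those with some reads in the other 6 libraries. Most points lie under 2 RPKM and under 500 nt, and the highest point, at 788 nt, reaches 20.2 RPKM.

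A few members stood well above the others. The highest was comp98024_c0_seq2 (788 nt), with 20.2 RPKM (920 reads) in CK0, 1 read in CK5 (0.0205 RPKM), 1 read in NDGA8 (0.0237 RPKM) and 0 reads in CK8, ABA5, ABA8 and NDGA5. The longest, comp100795_c0_seq1 (1491 nt), had 6.88 RPKM (593 reads) in CK0, 2 reads in CK5 (0.0217 RPKM) and 0 reads in the remaining 5. The unigene comp98032_c0_seq4 (1313 nt) had 6.16 RPKM (467 reads) in CK0, 4 reads in CK5 (0.0493 RPKM), 1 read in NDGA8 (0.0142 RPKM) and 0 elsewhere. In all 3 the few reads outside day 0 lay in CK5 or NDGA8, with 0 in CK8, ABA5, ABA8 and NDGA5. Together these 3 unigenes held 1980 of the 8543 reads of the set (23.2%). Other members had reads in other libraries. Over the whole set, 38 members had reads in CK5, NDGA5 or NDGA8, and 22 had reads in CK8, ABA5 or ABA8.

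Next came comp83791_c0_seq1 (329 nt), with 6.00 RPKM (114 reads) in CK0, 2 reads in ABA5 (0.09998 RPKM) and 0 in the other 5. The unigene comp121473_c0_seq1 (251 nt) had 5.65 RPKM (82 reads) in CK0 and 0 reads elsewhere, at least 25.4-fold higher in CK0 than in any other library with 3 reads per library as the floor. These 5 were the only members of at least 5 RPKM. The most abundant member with no read elsewhere by number of reads was comp66662_c0_seq1 (964 nt), with 3.34 RPKM (186 reads) in CK0, at least 57.6-fold higher than in each other library against the same floor. Among further long members, comp79404_c0_seq1 (1159 nt) had 1.49 RPKM (100 reads) in CK0 and 0 reads elsewhere. The unigene comp95468_c0_seq1 (1075 nt) had 2.38 RPKM (148 reads) in CK0, 2 reads in CK5, 1 in ABA5, 2 in NDGA8 and 0 in CK8, ABA8 and NDGA5. For these longer unigenes the day 0 reads run from 100 upwards, whereas a member with 12 reads rests on little. The gap to the other libraries was required by the rule, so its size is a description only.

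The thresholds cut through a continuous range of values. Just inside the minimum of 1 RPKM in CK0 lay comp139348_c0_seq1 (1.00 RPKM) and comp104798_c1_seq1 (1.00 RPKM), and just outside lay comp125950_c0_seq1 (0.999 RPKM) and comp51158_c0_seq1 (0.996 RPKM). For the cap elsewhere, comp83791_c0_seq1 (0.09998 RPKM) and comp53219_c0_seq1 (0.0948 RPKM) lay inside, and comp96366_c0_seq1 (0.101 RPKM) and comp92416_c0_seq1 (0.102 RPKM) outside. For the ratio, comp59074_c0_seq2 (20.1) and comp138759_c0_seq1 (20.4) lay inside, and comp70546_c1_seq1 (19.96) and comp94927_c0_seq1 (19.9) outside. Only the minimum in CK0 excluded 762 unigenes, only the cap 24 and only the ratio 42. The cap excluded some well expressed ones, up to comp97650_c0_seq1 with 26.7 RPKM in CK0, 0.399 RPKM in CK5 and 0 in the other 5, which was singled out after its values were seen.

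The other 6 libraries held unigenes of their own by the same rule, but fewer of them. The 188 of CK0 were 0.171% of all unigenes. With another library in the place of CK0 the rule took 57 unigenes in CK8 (0.0518%), 41 in ABA8 (0.0373%), 21 in NDGA5 (0.0191%), 12 in ABA5 (0.0109%), 10 in CK5 (0.00909%) and 9 in NDGA8 (0.00819%). CK0 thus had 3.30 times as many as CK8, the next library. Among these 6 libraries the 3 with the most reads, ABA8, NDGA5 and CK8, had 41, 21 and 57, and the 3 with the fewest, CK5, ABA5 and NDGA8, had 10, 12 and 9. CK0 had fewer reads than any of the 6 but NDGA8. Whether the number of reads in a library has a part in these counts was not tested. These sets were short in every library, with median lengths of 217.5 nt (CK5) to 282 nt (NDGA5), and their highest levels were 1.46 (NDGA8) to 5.31 RPKM (NDGA5), below the 20.2 RPKM reached in CK0. Their median levels were 1.15 (NDGA8) to 1.60 RPKM (CK8), around the 1.47 RPKM of the CK0 set. Short length and low median level are thus shared by the sets of all libraries and not particular to day 0. Of the reads of CK0, 0.0148% fell on its set (exact 95% binomial interval 0.0145 to 0.0151%, counting error only). The share was 0.00288% in CK8 and 0.000253% in NDGA8 for their own sets. CK0 is the only library of day 0, so its time point and anything particular to that 1 library cannot be told apart.

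**Figure D2:**
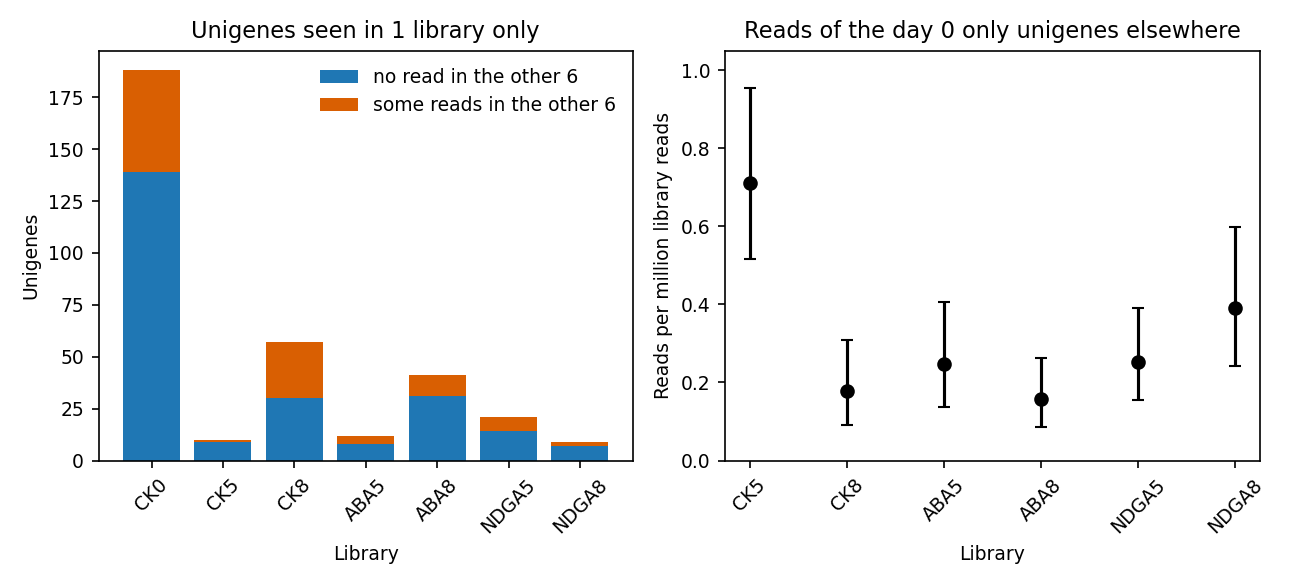
Left, number of unigenes that the rule takes in each library when that library stands in the place of CK0, divided by whether they had reads in the other 6. Right, reads of the 188 day 0 only unigenes in the other 6 libraries per 1e+06 library reads, with exact 95% Poisson intervals: CK5 is highest at 0.712 and ABA8 lowest at 0.157.

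Many more unigenes lay below CK0 by the same factor in a single library. Of the 46909 unigenes of at least 1 RPKM in CK0, the level in CK0 was at least 20 times that of CK5 in 1117 (2.38%), of CK8 in 1296 (2.76%), of ABA5 in 1333 (2.84%), of ABA8 in 2301 (4.91%), of NDGA5 in 816 (1.74%) and of NDGA8 in 707 (1.51%). Only 212 passed this ratio against all 6 at once, of which 24 exceeded 0.1 RPKM somewhere. The 188 are drawn from these same columns, so these percentages are a background and not a comparison with the set.

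The values elsewhere showed a gap between 0 and a low remainder. Among the 46909 unigenes, 139 had 0 reads in all 6 other libraries, 3 had a highest other level above 0 and up to 0.01 of CK0, 11 between 0.01 and 0.02, 59 between 0.02 and 0.05 and 125 between 0.05 and 0.1. The median member had 25 reads in CK0, so at this depth 1 read elsewhere already gives a ratio near 1 in 25, and lower ratios above 0 were not detectable for most members. The share at exactly 0 elsewhere was 0.296% of the unigenes of at least 1 RPKM in CK0, 0.0750% in ABA8, 0.0662% in CK8, 0.0316% in NDGA5, 0.0208% in CK5, 0.0183% in ABA5 and 0.0153% in NDGA8.

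**Figure D3:**
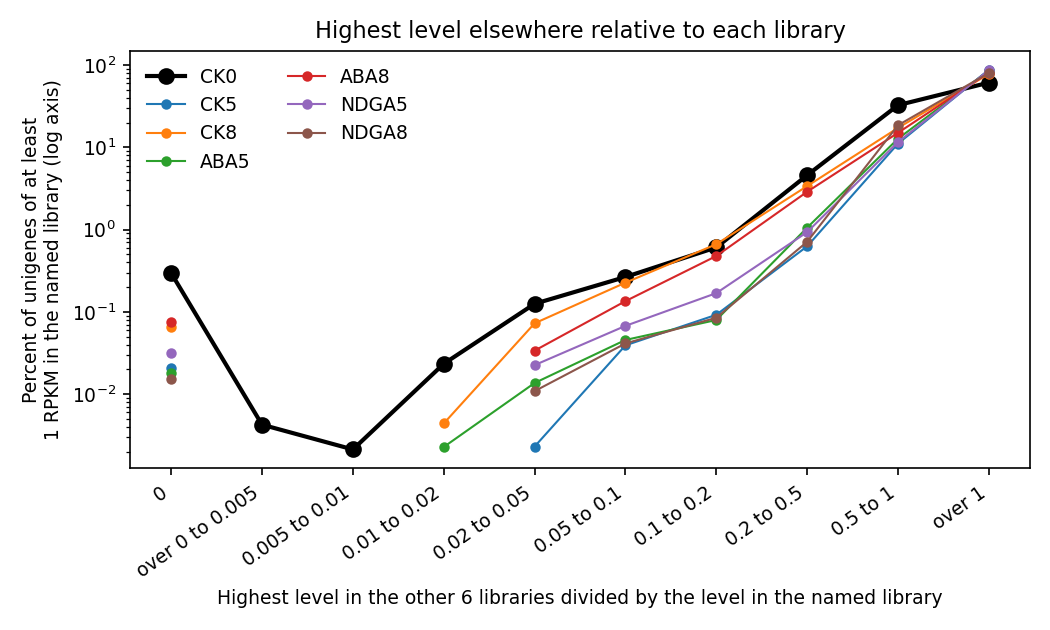
Percent (log axis) of the unigenes of at least 1 RPKM in each library by the ratio of their highest level in the other 6 libraries to the level in that library; empty bins are not drawn. CK0 (thick black line) lies highest at a ratio of 0, with 0.296%, and has values between 0 and 0.01 where the others have none.

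The members with and without reads elsewhere differed in size. The 139 with no read elsewhere had a median length of 270 nt, a median level of 1.38 RPKM and a highest level of 5.65 RPKM. The 49 with some reads had a median length of 406 nt, a median level of 1.83 RPKM and the 4 highest levels of the set. A longer or more abundant unigene has more reads to lose before reaching 0, and the cap allows it more reads, so this split is tied to the rule. Of the 49, 29 had reads in 1 other library, 12 in 2, 6 in 3 and 2 in 4.

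What little remained of the set outside day 0 lay most often in CK5. The 188 unigenes had 44 reads in CK5 (0.712 per 1e+06 library reads, exact 95% Poisson interval 0.517 to 0.956), 21 in NDGA8 (0.391, 0.242 to 0.598), 20 in NDGA5 (0.254, 0.155 to 0.392), 15 in ABA5 (0.247, 0.138 to 0.407), 12 in CK8 (0.177, 0.0914 to 0.309) and 14 in ABA8 (0.157, 0.0859 to 0.263). In CK0 they had 147.9 per 1e+06. CK5 held 34.9% of the 126 reads outside CK0, spread over 24 unigenes with at most 4 reads on any of them. The intervals cover counting error only. The rule capped these same values to choose the set, so the sums are a description and the libraries were not compared by a test.

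Relaxing the rule for 1 library at a time added the most unigenes when CK5 was left out. These counts come from the same values that the rule used, so they are a description and no second support. Without CK5 in the rule 297 unigenes passed, 109 more than the 188. Without NDGA5 47 more passed, without NDGA8 35, without CK8 22, without ABA5 19 and without ABA8 4. The 109 had a median of 2.09 RPKM in CK0 and 0.316 RPKM in CK5, and 1 of them was higher in CK5 than in CK0. The highest of them, comp100785_c0_seq4 (858 nt), stood at 66.9 RPKM in CK0 and 4.94 RPKM in CK5, and at no more than 0.0887 RPKM in the other 5 libraries. It was singled out after its values were seen.

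Most day 0 only unigenes stood alone in the assembly. They fell into 185 components, of which 162 (87.6%) held a single unigene, compared with 74.1% of all 67232 components. Counted by unigene, 162 of the 188 members were the only one of their component. This held for 21.4% of the 46909 unigenes of at least 1 RPKM in CK0. The members were shorter than these unigenes, and no comparison at like length was made. In 165 components every unigene was day 0 only. Only 3 components held 2 members. In comp52152 these were c0_seq1 (318 nt) with 2.34 RPKM and c1_seq1 (227 nt) with 1.45 RPKM in CK0, in comp83957 c0_seq1 (809 nt) with 1.43 RPKM and c1_seq1 (254 nt) with 1.36 RPKM, all with 0 reads elsewhere. In comp88053, c1_seq1 (1249 nt) had 1.83 RPKM (132 reads) in CK0 and 4 reads in CK5, and c0_seq1 (404 nt) had 1.03 RPKM (24 reads) and 0 elsewhere. The paired unigenes of a component lay within a factor of 2 of each other in CK0. The rule sets a floor of 1 RPKM and 152 of the 188 members lay under 2 RPKM, so most pairs of members would do so.

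The other unigenes of the mixed components, which the rule did not select, were mostly also high on day 0. The remaining 20 components held 33 further unigenes, 25 of them highest in CK0. Of the 21 with at least 1 RPKM in CK0, 19 (all but the 2 of comp104798) were highest there, against 38.6% of the 46909 unigenes at that level. In 12 of the 19 the next highest library was CK5, against 13.3% of all unigenes of that level that were highest in CK0. Unigenes of 1 component can share reads, so these values are not independent of the members. Nor are they independent of each other, since comp95468, comp102373 and comp111780 each gave more than 1 of the 12.

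Around comp95468_c0_seq1, the 4 further unigenes of its component (c1_seq2, c1_seq3, c1_seq4 and c2_seq1) stood at 2.20, 2.53, 3.71 and 4.06 RPKM in CK0. In CK5 they had 0.128, 0.109, 0.308 and 0.467 RPKM, and in CK8 and ABA8 all 4 were at 0. In comp102373, the member c1_seq3 (280 nt) had 2.78 RPKM (45 reads) in CK0 and 0 reads elsewhere. The long unigene c1_seq7 (2415 nt) of that component had 15.7 RPKM in CK0, 3.61 in CK5, 0 in CK8, ABA5 and ABA8, 0.0105 in NDGA5 and 0.131 in NDGA8. Another, c2_seq1 (266 nt), had 4.49 RPKM in CK0, 1.64 in CK5 and 0 in the other 5. Both components were thus lower in CK5 than in CK0 and lower again in CK8, and ABA5 and NDGA5 lay below CK5. The component comp102373 was singled out after its values were seen.

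Not every component behaved this way. In comp104798, whose member c1_seq1 (276 nt) had 1.00 RPKM in CK0 and 1 read in ABA8, the unigenes c2_seq2 and c2_seq4 stood between 8.38 and 19.0 RPKM in all 7 libraries. In comp95426 the member c0_seq2 (643 nt) had 2.85 RPKM (106 reads) in CK0, 2 reads in CK5 and 1 in NDGA5, whereas c0_seq1 (3025 nt) had 0.240 RPKM in CK0, 3.71 in CK8 and 12.7 in NDGA8. There the day 0 only contig and the long contig of the same component were highest in different libraries. The component comp95426 was singled out after its values were seen.

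**Figure D4:**
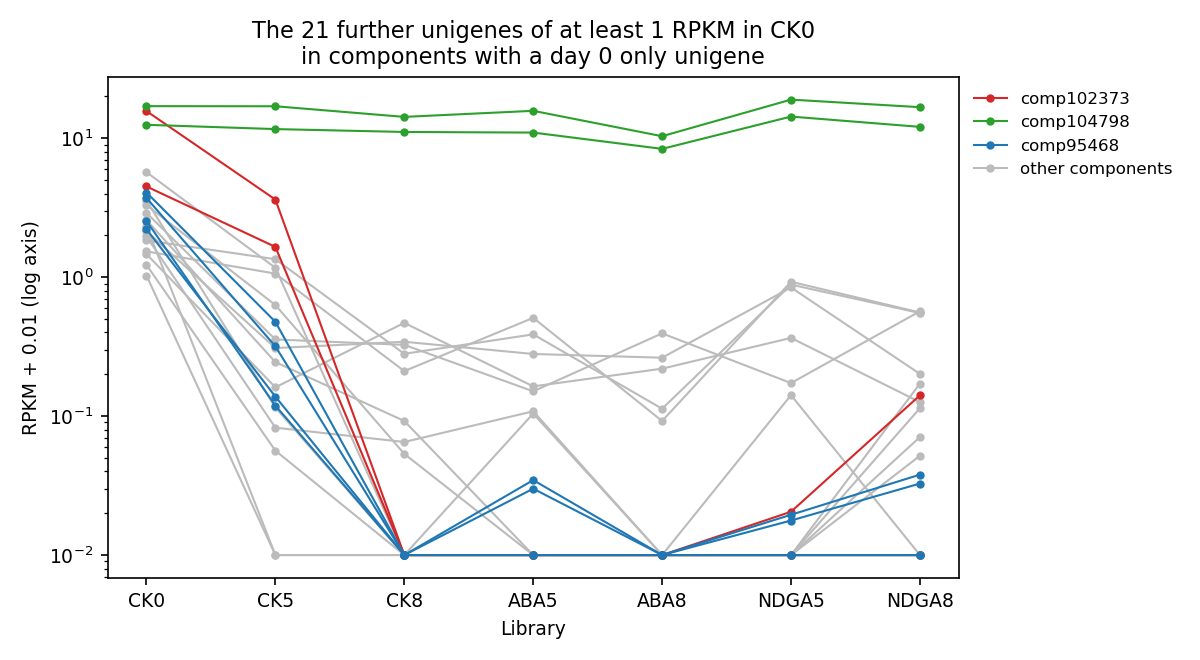
Level (RPKM + 0.01, log axis) in the 7 libraries of the 21 further unigenes of at least 1 RPKM in CK0 that share a component with a day 0 only unigene, 1 line per unigene (lines join its values and carry no order of treatments). Those of comp95468 and comp102373 drop after CK0 with CK5 between, and the 2 of comp104798 stay between 8.38 and 19.0 RPKM.

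Storage annotation appeared in 1 of these components. The unigene comp102373_c1_seq7 carried the terms aleurone grain, vacuole and nutrient reservoir activity, the last a term given to storage proteins such as those of seeds. The target table held 3 unigenes with nutrient reservoir activity, a list formed after these values were seen, and none of them is day 0 only. The second, comp111892_c0_seq4, also annotated as an aspartic-type endopeptidase, had 17.7 RPKM in CK0, 0.427 in CK5, 0 in CK8 and ABA8, 0.0212 in ABA5, 0.220 in NDGA5 and 0.0360 in NDGA8. The last, comp56405_c0_seq1, annotated to the apoplast and manganese binding, was low, with 0.311 RPKM (7 reads) in CK0 and 0.192 RPKM (4 reads) in NDGA8, the highest level elsewhere. The unigene comp92027_c0_seq1, malate synthase, an enzyme of the glyoxylate cycle by which germinating seeds turn fat into sugar, had 2.62 RPKM in CK0, 0.0822 in CK5, 0.105 in NDGA5 and 0 in the other 4. Malate synthase was also singled out after its values were seen. It and comp111892_c0_seq4 are among the 24 unigenes that only the cap kept out of the set, so their likeness to it was fixed by that choice. The unigene comp102373_c1_seq7 kept a higher level in CK5 than any member could, and comp56405_c0_seq1 differed by few reads between CK0 and NDGA8. Achenes had been cut off all receptacles, and whether seed RNA has a part in the set was not tested.

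Of the annotated pathway unigenes, 4 had their best protein match outside green plants: the enzymes 1-deoxy-D-xylulose-5-phosphate reductoisomerase (comp141446_c0_seq1) and phytoene dehydrogenase (comp141714_c0_seq1) of bacteria, and hydroxymethylglutaryl-CoA synthase (comp142476_c0_seq1) and farnesyl diphosphate synthase (comp141123_c0_seq1) of human. All 4 make isoprenoids or their precursors and none is day 0 only. Their summed reads were 3 in CK0, 0 and 7 in CK5 and CK8, 1 and 4 in ABA5 and ABA8, and 13 and 3 in NDGA5 and NDGA8, the highest single level being 0.680 RPKM of comp141446_c0_seq1 in NDGA5. Both human matches were at 0 in CK0. Each of the 4 had at most 2 reads in CK0, but all 4 have component numbers above 140000, where none of the 2467 unigenes reached 1 RPKM in CK0. Their low level is thus shared by that whole range and says nothing of other organisms on day 0. Whether the 188 unigenes come from strawberry or from another organism was not tested, since no sequence of them was used here.

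The numbers that the assembler gave to the components were spread differently in the members than in the expressed unigenes as a whole. Of the 188, 71 (37.8%) had a component number from 120000 to 139999, compared with 13.5% of all unigenes and 2.79% of those of at least 1 RPKM in CK0. From 100000 to 119999 lay 5 (2.66%) of the members, against 44.4% of all unigenes and 77.5% of those of at least 1 RPKM in CK0. None had a number of 140000 or above, where 2467 unigenes lie, none of which reached 1 RPKM in CK0. The members were also shorter and lower in level than the unigenes of at least 1 RPKM in CK0. No comparison of component numbers at like length and level was made, and what moves with the component number was not tested.

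**Figure D5:**
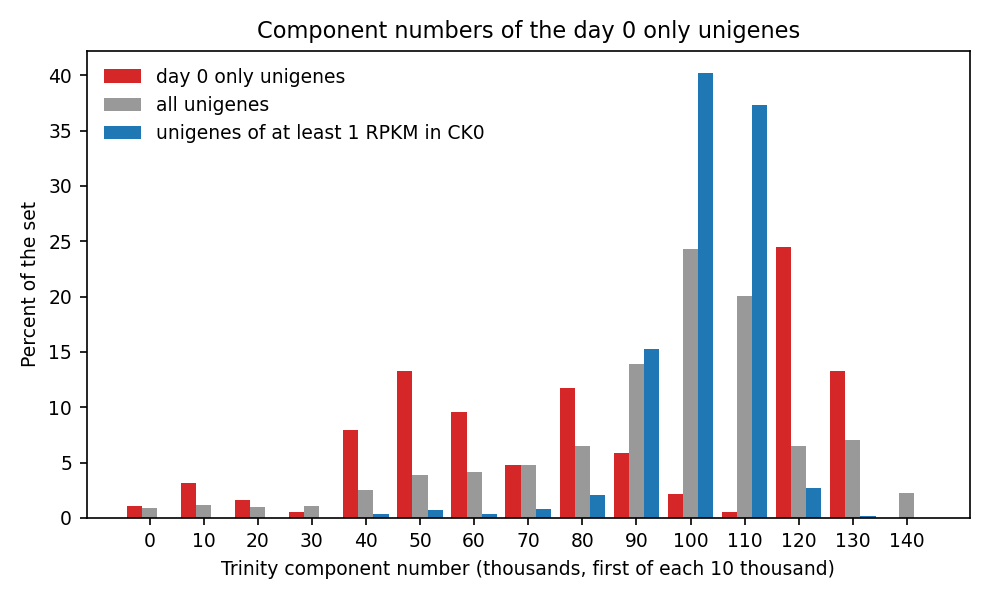
Percent of the 188 day 0 only unigenes, of all unigenes and of the unigenes of at least 1 RPKM in CK0 in steps of the Trinity component number. The members are spread over low numbers and the range from 120000 to 139999 (37.8%), and few lie from 100000 to 119999 (2.66%), where most expressed unigenes lie (77.5%).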

How the data were processed

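Receptacle RNA was sequenced by the authors as 100-bp paired-end reads, filtered with the NGS QC toolkit, assembled with Trinity and TGICL, and deposited as RPKM per unigene. Tool versions and the read counter are not given in sources used here. Missing RPKM values (24030) were taken as 0, since each stood where all 3 libraries of a deposited comparison were missing or at 0. Of the 1128 values of the day 0 only unigenes in the other 6 libraries, 622 were missing. Their counts of 0 rest in part on this choice. RPKM times length gave whole reads within 0.000142 reads, and library sizes followed from the step. More unigenes had 2 reads than 1 (6405 and 5300 in CK0), so reads may not be independent and intervals can be too narrow. The deposited degradome table gives a count of reads per predicted site, and the deposited small RNA table an estimated count per sequence. The authors' p-values, FDR and normalized columns were not used.

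Groups came from the sample labels. With 1 library per condition nothing was tested. Members and lists were chosen with earlier results of these data known. Named unigenes are the 5 highest, 5 longest and 5 with most reads in CK0, those of the 3 components with most members, the 2 nearest each threshold on either side, members in the annotation or target table, other unigenes of their components and those annotated outside plants; others are marked as chosen after their values were seen. Annotation was taken from the study's supplementary pathway table (names only) and the target table. The procedure was tested on simulated data, which checks its steps and not the deposited values. Alternatives were other thresholds, rescaling, length and read minimums, sums per component and leaving out each library. Values were computed with Python, numpy, pandas and scipy.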

Additional observations from a re-analysis of the deposited data

How the results depend on the processing

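The number of day 0 only unigenes stayed within 1.5 times of 188 under 13 of 18 alternatives. It was 596 with at least 0.5 RPKM in CK0, 36 with at least 2 RPKM, 5 with at least 5 RPKM, 95 among unigenes of at least 300 nt and 297 with the CK5 library left out of the rule. Leaving out each other library gave 192 to 235. The number of components with only such unigenes was 165, and 126 to 166 under its alternatives. The share of CK0 reads (0.0148%) became 0.0141% after rescaling by the median ratio, 0.00710% with no read elsewhere and 0.0183% with at most 0.2 RPKM elsewhere. Rescaling took out median shifts against CK0 of -0.34 in ABA8, -0.16 in ABA5 and -0.12 in CK8 on the log2 scale. The median length (301.5 nt) became 788 nt with at least 5 RPKM and 347 nt with at least 20 reads in CK0, where 5 and 137 unigenes remained. No paired analysis was possible because each condition has 1 library and no result comes from a test. At these depths a unigene with no read in a library may still be present below 3 reads, and the low level and short length of most members limit what a count of 0 shows.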
